A study of Homo sapiens with 15 samples.

Results

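Cells treated with thymoquinone (TQ) were set directly against cells treated with 5-fluorouracil (5-FU), with no control between them. The comparison takes 3 TQ and 3 5-FU samples, 6 of the 15 in the series, and all 730 endogenous genes of the NanoString nCounter PanCancer Pathways Panel. Both groups were HCT116 cells, an established human colorectal cancer line, exposed for 24 h to 40 µM TQ or to 15 µM 5-FU. The doses differ, so no value below compares the compounds at a matched concentration. The 3 samples of each group are biological replicates, and all 6 ran on the same cartridge. For orientation, levels are also given in 3 untreated control samples of the same line, of which 1 ran on that cartridge and 2 on another. The compounds were dissolved in DMSO, and whether the control received it is not given in the sources used here. The series holds further samples of a TQ and 5-FU combination and of a hybrid compound, which enter only alternative fits and the fit behind the values against control.

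TQ is a quinone from black cumin that can react with the thiol groups of proteins, and quinones of this kind are known to disturb protein folding and redox balance. 5-FU is a pyrimidine analog that blocks thymidylate synthase and is built into RNA and DNA, and the resulting DNA damage stabilizes p53. Stabilized p53 induces genes that halt the cell cycle, repair DNA and trigger apoptosis, whereas unfolded proteins release heat shock factors that induce chaperones.

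Of the 730 genes, 25 (3.42%) were called higher and 115 (15.8%) lower in TQ than in 5-FU, where a call needs a 1.5-fold difference and an adjusted p (edgeR, Benjamini-Hochberg) no larger than 0.05. The strongest genes higher in TQ were the histone gene HIST1H3H, the AP-1 subunit FOS and the chaperone HSPA1A, and the strongest lower ones were the laminin chain LAMA3, the cell cycle inhibitor CDKN1A and the TRAIL decoy receptor TNFRSF10C. The 3 TQ and 3 5-FU samples did not overlap in 304 genes (41.6%), of which 74 (10.1%) were higher and 230 (31.5%) lower in every TQ sample. Among the called genes this held for 24 of the 25 higher and 112 of the 115 lower ones. All levels are scaled counts, which are raw counts brought to an equal geometric mean of the 40 housekeeping genes. Under TMM, a scaling to the bulk of the panel in place of the housekeeping genes, 63 genes (8.63%) were called higher and 75 (10.3%) lower, and 25 higher (3.42%) and 72 lower (9.86%) genes were called under both scalings. The median log2 fold change of TQ over 5-FU over all genes was -0.34 with housekeeping scaling and -0.069 with TMM, and every list median below is to be read against these values. List counts are likewise to be read against the shares of all genes, 3.42% higher and 15.8% lower, or 8.63% and 10.3% after TMM.

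**Figure D1:**
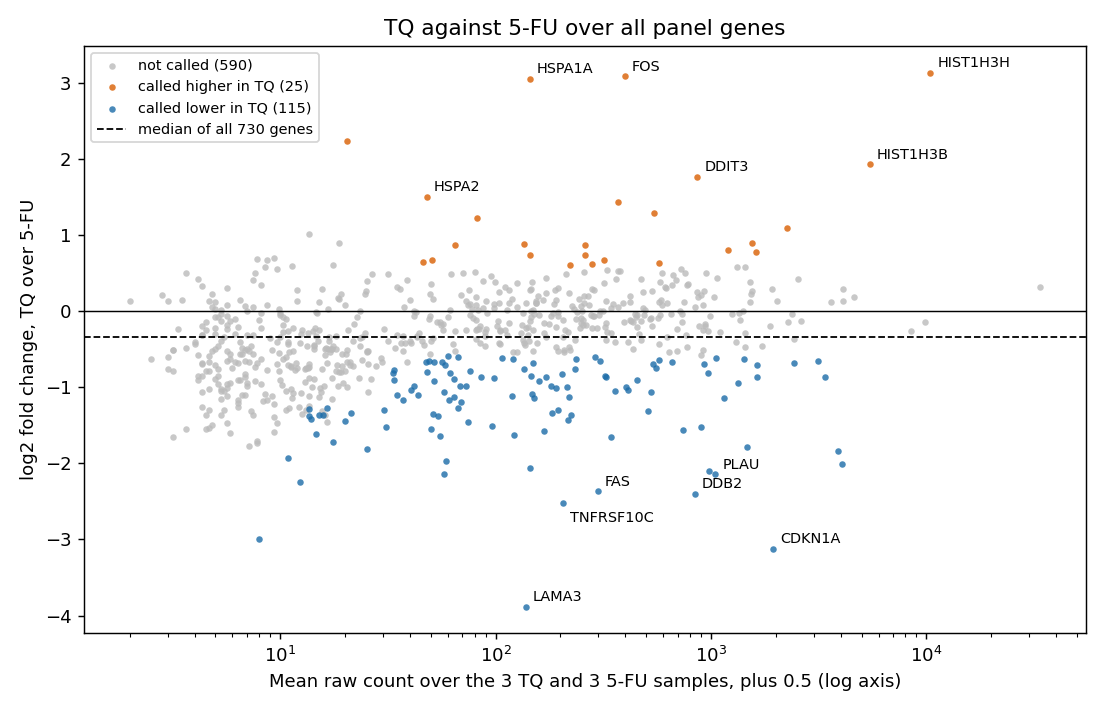
Log2 fold change of TQ over 5-FU with housekeeping scaling (vertical axis) against the mean raw count of the 6 samples plus 0.5 (horizontal log axis), with 1 point per gene. Orange points are the 25 genes called higher and blue points the 115 called lower in TQ, grey points were not called, and the dashed line marks the median of -0.34. Most points left of 20 counts lie under 0, with a median of -0.63.

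Endogenous counts summed to 135017 to 513114 in TQ and 238738 to 261686 in 5-FU, and 245 to 344 genes in TQ samples and 226 to 265 in 5-FU samples had fewer than 20 counts. The 8 negative probes, which match no human transcript, averaged 6.15 ± 2.26 scaled counts (SD, n = 3) in TQ and 10.7 ± 2.86 in 5-FU, a log2 difference of -0.85. The median log2 fold change was -0.63 for the 276 genes with a mean raw count under 20, -0.36 for 153 genes from 20 to 100, -0.12 for 249 genes from 100 to 1000 and -0.079 for 52 genes above. The part of this background in the low genes was not tested, and only 6 called genes, all lower in TQ, averaged fewer than 20 raw counts in the higher group. Of 8 colon epithelial markers on the panel, 7 lay above background in all 6 samples, against 1 of 10 leukocyte markers (CD40) and 1 of 5 fibroblast and endothelial markers (COL1A1). The summed scaled count of the epithelial markers was 3373 to 3675 in TQ and 6852 to 7034 in 5-FU, with 4163 to 5588 in control, and it includes ITGB4, ITGA6 and LAMB3, which are described below. The 3 stem or progenitor markers on the panel all lay above background and summed to 941 to 1069.8 in TQ, 1259 to 1283 in 5-FU and 1143 to 1703 in control. The part of these markers in the results was not tested. In such bulk samples, fewer cells with a transcript and less of it per cell cannot be told apart.

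Genes induced by p53 were mostly lower in TQ. Of 18 on the panel, 11 were lower and 1 higher in TQ, with a median log2 fold change of -1.08, and after TMM the counts were the same and the median was -0.79. CDKN1A encodes p21, which binds and inhibits cyclin-dependent kinases. It had 526, 536 and 496 scaled counts in TQ and 3842, 4160.3 and 5625 in 5-FU. The groups lay far apart, 8.71-fold, at a log2 fold change of -3.12 with a standard error of 0.12 (adjusted p = 6.63e-12). SFN, the 14-3-3 protein that holds cyclin B and its kinase outside the nucleus, had 1944, 2027 and 2195 in TQ and 8029.8, 8137 and 8746 in 5-FU (log2 fold change -2.01, adjusted p = 1.51e-12). MDM2, the ubiquitin ligase that marks p53 for degradation, counted 2211, 2106 and 2179 in TQ and 7718, 7552 and 7957 in 5-FU (log2 fold change -1.84, adjusted p = 1.51e-12). For both genes each 5-FU sample stood more than 3-fold above each TQ sample, and replicates differed by little.

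DDB2, the subunit that recognizes damaged DNA in nucleotide excision repair, had 397, 335 and 310.4 scaled counts in TQ and 1780.3, 1833 and 1826 in 5-FU, which amounts to -2.40 on the log2 scale with a standard error of 0.09 (adjusted p = 6.3e-12). PCNA, the sliding clamp of DNA polymerases, had 414, 422 and 445 in TQ and 705, 883 and 1102 in 5-FU (log2 fold change -1.07, adjusted p = 7.4e-06). All 5-FU samples were higher in both genes, with a wider spread for PCNA. GADD45A, another p53-induced gene, had a log2 fold change of -0.52 with a 95% interval from -0.74 to -0.30, short of the required fold. Its samples lay at 977, 987 and 799.8 in TQ and 1474, 1342 and 1145 in 5-FU and did not overlap.

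Of 5 TRAIL and FAS receptor genes in this list, 3 were lower in TQ. FAS, which starts the extrinsic death pathway, counted 139.5, 122 and 114 in TQ and 629, 639.9 and 645 in 5-FU (log2 fold change -2.36, adjusted p = 2.7e-11). TNFRSF10C, a decoy that binds TRAIL without a death domain, had 68.5, 77.1 and 83.6 in TQ and 493, 420.4 and 419.7 in 5-FU (log2 fold change -2.53, adjusted p = 1.38e-10). The signalling TRAIL receptor TNFRSF10B, named after its values were seen, had a log2 fold change of -0.87. BAX, which permeabilizes mitochondria, had 477, 456 and 505 in TQ and 1287, 1339.8 and 1603 in 5-FU, a log2 fold change of -1.56 (adjusted p = 2e-09). BAD, which neutralizes survival proteins, ranged from 125 to 147 in TQ and from 225 to 313 in 5-FU (log2 fold change -0.92). Of the 22 BCL2 family, caspase and death receptor genes, 6 were lower and 0 higher in TQ under both scalings, at a median of -0.53 (-0.25 after TMM). These 6 comprise the survival gene BCL2L1 (log2 fold change -0.94, named after its values were seen), BAX, BAD and 3 receptor genes. The 3 receptor genes include FAS and the decoy TNFRSF10C. The list and the p53-induced list share FAS, TNFRSF10B, TNFRSF10C and BAX, so they are not separate evidence.

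The p53 response element consists of decamers, and such matches were sought by name on both strands of RefSeq promoter windows of GRCh38.p14, each from 250 bases before to 50 after an annotated start. A decamer was found in 6.63% of all 35116 windows, and 0.028% held a pair separated by at most 13 bases. Here and below, a gene counts where any of its windows holds a match. Such gene counts cannot be set against the shares of single windows. Among the 9 of the 12 strongest genes lower in TQ that have a window, DDB2 and FAS held a match, and among the 11 of the 12 strongest higher ones HIST1H3B and HSPA2 did. The matches of the lower genes are shown in capitals in 30 bases from a DDB2 window (chr11:47214974-47215003, plus strand) and a FAS window (chr10:88991299-88991328, plus strand). The DDB2 stretch holds 2 decamers, starting 5 and 16 bases after that start. For CDKN1A these letters are not in the window, which says nothing about elements elsewhere.
DDB2: ggtttGAACAAGCCCtGGGCATGTTTggcg
FAS: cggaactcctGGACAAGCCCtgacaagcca

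THBS1 was the p53-induced gene that went the other way. It encodes thrombospondin, a secreted matrix protein that restrains angiogenesis, and had 460.2, 332 and 462 scaled counts in TQ, 228, 253 and 252 in 5-FU and 112, 84.7 and 99.2 in control (log2 fold change of TQ over 5-FU 0.74, adjusted p = 0.000356). Both treatments thus lay above control, with TQ the higher.

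Chaperone and stress genes were mostly higher in TQ. Of 7 such genes on the panel, 5 were called higher and 1 lower, with a median log2 fold change of 1.50, and after TMM 6 were higher and 0 lower. HSPA1A, an inducible cytosolic Hsp70, had 416, 253 and 329 scaled counts in TQ and 26.9, 45.2 and 44.5 in 5-FU. The lowest TQ sample was above every 5-FU sample, and the groups differed by 3.05 on the log2 scale, with a standard error of 0.22 (adjusted p = 1.29e-08). Its near-identical copy HSPA1B leaves the source of these counts uncertain. HSPA2, a related Hsp70, had 120.0, 70.9 and 85.3 in TQ and 30.5, 30.6 and 30.6 in 5-FU (log2 fold change 1.50, adjusted p = 0.000129). HSPA6, a strictly inducible Hsp70, was scarce, with 26.9, 40.7 and 42.6 in TQ and 6.11, 5.32 and 12.5 in 5-FU (log2 fold change 2.23), and its call was lost when counts under 20 were set to 20. The 5-FU samples of HSPA6 lay around the level of the negative probes, while the TQ samples stood above it.

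HSP90B1, the Hsp90 of the endoplasmic reticulum, counted 2759, 2616 and 1741 in TQ and 1449, 1378 and 1001 in 5-FU, where replicate 3 was the lowest of each group (log2 fold change 0.89, adjusted p = 0.000193). DDIT3 encodes CHOP, a transcription factor of the unfolded protein and integrated stress responses, and had 1719, 1622 and 1328 in TQ and 488, 434 and 448 in 5-FU. It was 3.40-fold higher in TQ (log2 fold change 1.77, standard error 0.10, adjusted p = 6.91e-10), and all TQ samples were above all control samples, at 1017, 1048 and 618. DDIT4, an mTORC1 inhibitor induced by several stresses, was the lower member, with 142, 128 and 121 in TQ and 186, 233 and 288 in 5-FU (log2 fold change -0.86), and it was not called after TMM (-0.56). The small heat shock protein gene HSPB1 was not called with housekeeping scaling (log2 fold change 0.36) and was called higher after TMM (0.64).

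Heat shock factors bind inverted GAA units, and the pair GAANNTTC, which reads the same on both strands, occurs in 6.77% of all windows. It is marked in capitals in the 250 bases before the start of the inducible Hsp70 genes HSPA1A (chr6:31815293-31815542, plus strand) and HSPA6 (chr1:161524290-161524539, plus strand). Both genes were higher in TQ, and their promoters were chosen for display after the matches were seen. HSPA1A holds 1 such pair, starting at -106 from the start, and HSPA6 holds 2, at -180 and -69. Of the 11 strongest genes higher in TQ with a window, HSPA1A and HIST1H3B held the pair in at least 1 window, and of the 9 strongest lower ones PRDM1 did.
HSPA1A: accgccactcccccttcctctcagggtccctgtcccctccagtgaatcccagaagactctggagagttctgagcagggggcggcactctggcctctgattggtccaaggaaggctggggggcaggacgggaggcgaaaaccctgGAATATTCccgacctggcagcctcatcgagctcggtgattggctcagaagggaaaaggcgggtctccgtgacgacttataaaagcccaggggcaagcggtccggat
HSPA6: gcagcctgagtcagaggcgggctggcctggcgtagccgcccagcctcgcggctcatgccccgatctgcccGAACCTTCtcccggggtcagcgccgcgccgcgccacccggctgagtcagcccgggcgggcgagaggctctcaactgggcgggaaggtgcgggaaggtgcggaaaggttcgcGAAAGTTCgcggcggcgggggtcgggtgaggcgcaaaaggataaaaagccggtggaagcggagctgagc

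Immediate-early genes, which respond first to growth or stress signals, differed in both directions. Of 10 on the panel, 3 were higher and 1 lower in TQ under both scalings, at a median log2 fold change of 0.19 (0.48 after TMM). FOS had 749, 821 and 894 scaled counts in TQ and 80.6, 102 and 109.8 in 5-FU, 8.46-fold apart with no overlap (log2 fold change 3.08, standard error 0.12, adjusted p = 6.63e-12). Its AP-1 partner JUN went the other way, with 66.1, 59.2 and 59.7 in TQ and 100.1, 118 and 145 in 5-FU (log2 fold change -0.99, adjusted p = 0.000373). GADD45B, a stress sensor upstream of p38 and JNK signalling, had 774, 585 and 662 in TQ and 214, 251 and 274 in 5-FU (log2 fold change 1.43, adjusted p = 1.17e-07). GADD45B and GADD45A thus had opposite signs between the treatments, although their difference was not tested. MYC, a driver of growth and a WNT target, ranged from 2307 to 2597 in TQ and from 1394 to 1513 in 5-FU (log2 fold change 0.78, adjusted p = 3.79e-07). FUBP1, which binds a DNA element upstream of MYC, counted 1014, 983 and 711 in TQ and 436, 402 and 264 in 5-FU (log2 fold change 1.29, adjusted p = 7.4e-06).

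Among 14 feedback genes of the ERK pathway, 5 were lower (35.7%) and 1 higher (7.14%) in TQ, beside 15.8% and 3.42% of all genes. After TMM 3 were lower and 1 higher, and the median was -0.42 before and -0.12 after it. The phosphatase gene DUSP4, which switches off ERK in the nucleus, had 308, 284 and 298 in TQ and 602, 569 and 655 in 5-FU (log2 fold change -1.04, adjusted p = 3.46e-07). DUSP8, a phosphatase of JNK and p38, ranged from 26.9 to 36.4 in TQ and from 67.9 to 79.4 in 5-FU (log2 fold change -1.10). EPHA2, an ephrin receptor kinase that is also p53-induced, had 568, 580.2 and 612 in TQ and 1523, 1715 and 1842 in 5-FU (log2 fold change -1.53, adjusted p = 7.14e-10). The chemokine gene IL8 was the member higher in TQ, with a log2 fold change of 0.64, and this call was lost in 8 of 16 alternative settings.

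Of 6 histone genes on the panel, 2 were called, both replication-dependent H3 genes and both higher in TQ. HIST1H3H, a histone H3 gene of the cluster on chromosome 6, had 23424, 21537 and 21102 scaled counts in TQ, 2601, 2351 and 2584 in 5-FU and 32812, 25976 and 18150.0 in control. TQ samples lay within the control range and 5-FU samples far under it, and TQ exceeded 5-FU by 3.13 on the log2 scale, with a standard error of 0.07 (adjusted p = 4.13e-15). HIST1H3B had 11171, 9823 and 10254 in TQ, 2553, 2521 and 3115 in 5-FU and 19403, 20056 and 14772 in control (log2 fold change of TQ over 5-FU 1.93, adjusted p = 1.34e-11). Here the TQ samples lay between the other groups. H3 genes of this cluster are near-identical in their coding sequence, so which copies gave these counts is uncertain. A further member, HIST1H3G, was near background and not called (log2 fold change -0.33, named after its values were seen).

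CCAAT boxes are a shared element of many proliferation genes and occur in 34.6% of all windows, on either strand. Both histone promoters, listed in RefSeq as H3C10 for HIST1H3H (chr6:27809801-27810050, plus strand) and H3C2 for HIST1H3B (chr6:26032100-26032349, minus strand), held 2 of them in the 250 bases before the start, as marked in capitals, at the same distances of -96 and -54. Of the 11 strongest genes higher in TQ with a window, 10 held a CCAAT box in at least 1 of their windows, as did 4 of the 9 strongest lower ones, where a gene can have several windows.
HIST1H3H: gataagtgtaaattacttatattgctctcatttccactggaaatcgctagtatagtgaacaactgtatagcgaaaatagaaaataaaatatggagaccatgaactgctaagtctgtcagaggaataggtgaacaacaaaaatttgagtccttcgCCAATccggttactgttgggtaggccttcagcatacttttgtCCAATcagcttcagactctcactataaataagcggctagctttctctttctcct
HIST1H3B: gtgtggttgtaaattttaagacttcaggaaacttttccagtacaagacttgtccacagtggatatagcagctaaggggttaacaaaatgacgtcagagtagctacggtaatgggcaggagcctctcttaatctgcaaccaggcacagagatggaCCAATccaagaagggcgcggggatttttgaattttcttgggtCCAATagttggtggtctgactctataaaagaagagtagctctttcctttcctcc

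Of 20 replication and S phase genes, the 6 histone genes included, 2 were lower (10%) and 3 higher (15%) in TQ. The shares of all genes were 15.8% and 3.42%. After TMM 2 of the 20 were lower and 5 higher, and the median was 0.064 before and 0.34 after it. Outside the histones, 1 of 6 genes of origin licensing and the helicase was higher, and 2 of 8 polymerase and clamp genes were lower. The helicase subunit gene MCM5 had 379, 448 and 321 in TQ and 219, 208 and 214 in 5-FU (log2 fold change 0.87, adjusted p = 4.39e-05). The small polymerase delta subunit gene POLD4 was lower in TQ, with 237, 168 and 157 against 350.4, 355 and 381 (adjusted p = 1.95e-05). Among 24 genes of cyclins, cyclin-dependent kinases, their inhibitors and the E2F and RB proteins, 1 was higher (4.17%) and 5 lower (20.8%). Of all genes, 3.42% were higher and 15.8% lower. After TMM 4 of the 24 were higher and 2 lower, and the list median turned from -0.13 to 0.15. CCNB1, the cyclin that drives entry into mitosis, had 3677, 3656 and 3704 in TQ and 1785, 1715 and 1673 in 5-FU, 2.13-fold apart with tight replicates (log2 fold change 1.09, adjusted p = 1.16e-09). CCNE2, a cyclin of the entry into S phase, went the other way, with 343, 326 and 348 in TQ and 670.4, 702 and 641 in 5-FU (log2 fold change -0.99, adjusted p = 2.98e-07). CDKN2B, an inhibitor of CDK4 and CDK6, had a log2 fold change of -0.86 and was not called after TMM. CCND1, the cyclin of early G1, counted 3014, 2844 and 2870.2 in TQ and 2780.4, 2898 and 3270.4 in 5-FU, and its log2 fold change of -0.037 had a 95% interval from -0.19 to 0.12.

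Of 26 genes of G2, mitosis and their checkpoints, CCNB1 alone was called with housekeeping scaling, whereas 8 were higher and 0 lower after TMM, with medians of 0.20 and 0.46. NPM1, a nucleolar histone chaperone, had 139.5, 121 and 167 in TQ and 57.4, 63.9 and 58.4 in 5-FU (log2 fold change 1.22, adjusted p = 3.32e-05). Of 33 DNA repair genes, 3 were lower (9.09%) and 0 higher with housekeeping scaling, beside 15.8% and 3.42% of all genes. After TMM 1 was lower and 4 higher, and the median turned from -0.11 to 0.16. The 3 lower ones with housekeeping scaling were DDB2, the repair helicase gene ERCC6 (log2 fold change -0.63) and the end-joining gene XRCC4 (-0.61). Only DDB2 of these was called after TMM.

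Matrix and adhesion genes had the lowest list median after the p53-induced genes. Of 46 on the panel, 14 were lower (30.4%) in TQ and 1 (THBS1) higher, with a median log2 fold change of -0.75, and 12 lower and 1 higher with a median of -0.46 after TMM. Only 19 of the 46 had a mean raw count of at least 20, and for these the median was -1.12. LAMA3, the alpha chain of laminin-332 in epithelial basement membranes, had 22, 22.2 and 23.9 scaled counts in TQ, 332, 362 and 309.9 in 5-FU and 43.2, 30.2 and 33.6 in control. This was the largest difference on the panel, 14.7-fold with no overlap (log2 fold change -3.88, standard error 0.16, adjusted p = 6.63e-12). LAMB3, the beta chain of laminin-332, named after its values were seen, was also lower, with a log2 fold change of -1.65 (adjusted p = 1.25e-08). It had 215, 232 and 167 in TQ, 679, 677 and 610.2 in 5-FU and 77.8, 78.6 and 106 in control, so that LAMB3 lay above control in both treatments. LAMA3 counts were lower in TQ than in control. The negative probes averaged 18.1 and 20.6 scaled counts in control replicates 2 and 3, where LAMA3 had 30.2 and 33.6. The place of LAMA3 in TQ under control is therefore uncertain.

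Of 11 integrin genes, 4 were called lower in TQ and 0 higher under both scalings. ITGB4, the beta subunit that anchors hemidesmosomes to laminin, had 485, 492 and 426 in TQ and 2097, 1994 and 1954 in 5-FU (log2 fold change -2.10, adjusted p = 6.63e-12). Its partner ITGA6, named after its values were seen, had a log2 fold change of -1.14 (adjusted p = 3.66e-08). ITGA3, a further laminin-binding integrin subunit, had 791, 845 and 863 in TQ and 2872, 2939 and 2812 in 5-FU (log2 fold change -1.78, adjusted p = 6.63e-12). PLAU, the urokinase that activates plasmin on the cell surface, had 541, 494 and 447 in TQ and 2255, 2244 and 2031 in 5-FU, 4.42-fold apart (log2 fold change -2.14, adjusted p = 6.63e-12). For each of these genes the highest TQ sample was below the lowest 5-FU sample.

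AP-1 dimers of FOS and JUN proteins bind TGANTCA, which reads the same on both strands and occurs in 7.71% of all windows, with 2 or more copies in 0.515%. The 250 bases before a LAMA3 start (chr18:23872770-23873019, plus strand) hold 2 copies, in capitals, at -125 and -69. LAMA3 differed most of all genes, and its promoter was chosen for display after these matches were seen. Of the 9 strongest genes lower in TQ with a window, 5 held the motif (FAS, LAMA3, MDM2, PRDM1 and SFN), and of the 11 strongest higher ones with a window 2 did (DDIT3 and NPM1). A gene counts where any of its windows holds the motif, so these counts cannot be set against the 7.71% of single windows.
LAMA3: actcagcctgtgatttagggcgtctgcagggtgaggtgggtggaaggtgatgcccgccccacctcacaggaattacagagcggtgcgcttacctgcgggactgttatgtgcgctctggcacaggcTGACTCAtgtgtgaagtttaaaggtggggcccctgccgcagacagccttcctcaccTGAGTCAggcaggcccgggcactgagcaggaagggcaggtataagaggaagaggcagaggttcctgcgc

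The 67 WNT pathway genes on the panel had 13 lower (19.4%) and 2 higher (2.99%) members in TQ, beside 15.8% and 3.42% of all genes, and 8 lower and 6 higher after TMM, with medians of -0.49 and -0.19. Among the ligands, WNT16 had 286, 339.7 and 380.3 scaled counts in TQ, 639.8, 655 and 782 in 5-FU and 917, 1128 and 1397 in control (log2 fold change of TQ over 5-FU -1.03, adjusted p = 2.35e-06). All treated samples were below control, the TQ samples furthest. WNT7B had 41.6, 29.6 and 35.8 in TQ and 94, 119.7 and 103 in 5-FU (log2 fold change -1.65, adjusted p = 7.4e-06). The ligand genes WNT10A (-1.81) and WNT7A (-1.62) were near background, and both calls were lost when counts under 20 were set to 20. That of WNT7A was also lost without TQ replicate 2, without 5-FU replicate 2 and without 5-FU replicate 3. AXIN2, a negative feedback target of beta-catenin, was higher in TQ, with 97.9, 92.5 and 118 against 57.4, 43.9 and 65.3 (log2 fold change 0.86, adjusted p = 0.00211). The gene of beta-catenin itself, CTNNB1, had 2659, 2639 and 2696 in TQ and 2730.3, 2809.9 and 3256 in 5-FU, and its log2 fold change of -0.14 had a 95% interval from -0.30 to 0.021.

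Of 28 core PI3K-AKT-mTOR genes, 8 were lower (28.6%) and 0 higher, and 4 lower and 1 higher after TMM, with medians of -0.30 and -0.014, close to those of all genes. The adaptor gene IRS1, which links insulin receptors to PI3-kinase, had 118, 158 and 186 in TQ and 322, 309 and 317 in 5-FU (log2 fold change -1.01, adjusted p = 1.55e-05). The regulatory subunit gene PIK3R2 ranged from 112 to 126 in TQ and from 215 to 309 in 5-FU (log2 fold change -1.14, adjusted p = 1.19e-05). Among 35 genes of the RAS-RAF-ERK and stress kinase cascades, 5 were lower (14.3%) and 1 higher (2.86%), beside 15.8% and 3.42% of all genes (3 and 2 after TMM), with medians of -0.20 and 0.073. MAP3K12, a kinase upstream of JNK, had 110.2, 67.8 and 63.1 in TQ and 258, 239 and 203 in 5-FU (log2 fold change -1.63, adjusted p = 1.67e-06). RASA4 and RASAL1, which switch off RAS, had log2 fold changes of -1.55 and -1.06. MAP3K14, the kinase of noncanonical NF-kB signalling, was the higher one (0.60), and its call was lost without TQ replicate 1, without 5-FU replicate 2 and when only the housekeeping genes of at least 100 raw counts were used.

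Of 43 growth factors and receptor kinases, 9 were lower (20.9%) and 1 higher (2.33%) in TQ, beside 15.8% and 3.42% of all genes (4 and 1 after TMM), with medians of -0.32 and -0.046. NGFR, the low-affinity neurotrophin receptor, had 78.3, 74.6 and 58 in TQ and 288, 326 and 277 in 5-FU (log2 fold change -2.06, adjusted p = 7.29e-09). PGF, a ligand of the VEGF receptor FLT1, had a log2 fold change of -1.35. VEGFA, the main angiogenic growth factor, was higher in TQ, with 1018, 775 and 836 against 591, 519 and 569.8 (log2 fold change 0.63, adjusted p = 0.000177), a call lost without TQ replicate 1 and without 5-FU replicate 2. Among 47 TGF-beta, BMP and Notch genes, 8 were lower (17.0%) and 0 higher, beside 15.8% and 3.42% of all genes. After TMM 5 were lower and 4 higher. The medians of -0.62 before and -0.36 after TMM rest on many genes near background. With housekeeping scaling, the median of those with at least 20 mean raw counts was -0.20. NOTCH3, a Notch receptor, had 29.4, 29.6 and 32.4 in TQ, 114, 112 and 132 in 5-FU and 83, 69.5 and 116 in control (log2 fold change of TQ over 5-FU -1.97, adjusted p = 3.79e-07). Its TQ samples were below both other groups. The BMP antagonist gene NOG (-1.72) and the ligand gene TGFB3 (-1.37) were near background and lost their calls when counts under 20 were set to 20, and that of TGFB3 was lost in 8 of 15 settings in all.

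Of 42 NF-kB, cytokine and JAK-STAT genes, 10 were lower (23.8%) and 1 higher (2.38%) in TQ, beside 15.8% and 3.42% of all genes. After TMM 8 were lower and 2 higher, and the median was -0.28 before and -0.016 after it. STAT3, the transcription factor activated by IL6-type cytokines, had 316, 374 and 399 in TQ and 913, 883 and 928 in 5-FU (log2 fold change -1.31, adjusted p = 1.56e-08). SOCS1, an inhibitor of JAK kinases, had 51.4, 53.6 and 49.5 in TQ and 117, 110.4 and 132 in 5-FU (log2 fold change -1.20, adjusted p = 2.62e-05). STAT4 had a log2 fold change of -1.52 at few counts. PRDM1, which encodes the transcriptional repressor Blimp-1, had 26.9, 30.2 and 18.8 in TQ and 116, 110.4 and 129 in 5-FU (log2 fold change -2.14, adjusted p = 3.79e-07). Among 34 chromatin genes, 2 were higher (5.88%) and 1 lower (2.94%) in TQ, beside 3.42% and 15.8% of all genes. After TMM 5 were higher and 0 lower, and the median turned from -0.12 to 0.15. The TQ and 5-FU samples did not overlap in 18 of the 34, beside 304 of all 730 genes. IDH1, the cytosolic isocitrate dehydrogenase, had 220.3, 210.3 and 206 in TQ and 103, 112 and 131 in 5-FU (log2 fold change 0.88, adjusted p = 5.68e-05), and the histone methyltransferase gene SETD2 had a log2 fold change of 0.67. The histone deacetylase gene HDAC11 was lower (-0.67), a call lost in 8 of 16 alternative settings. DNMT1, the maintenance DNA methyltransferase, counted 1655, 1786 and 1653 in TQ and 1689, 1691 and 1704 in 5-FU, and its log2 fold change of 0.0058 had a 95% interval from -0.14 to 0.15.

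**Figure D2:**
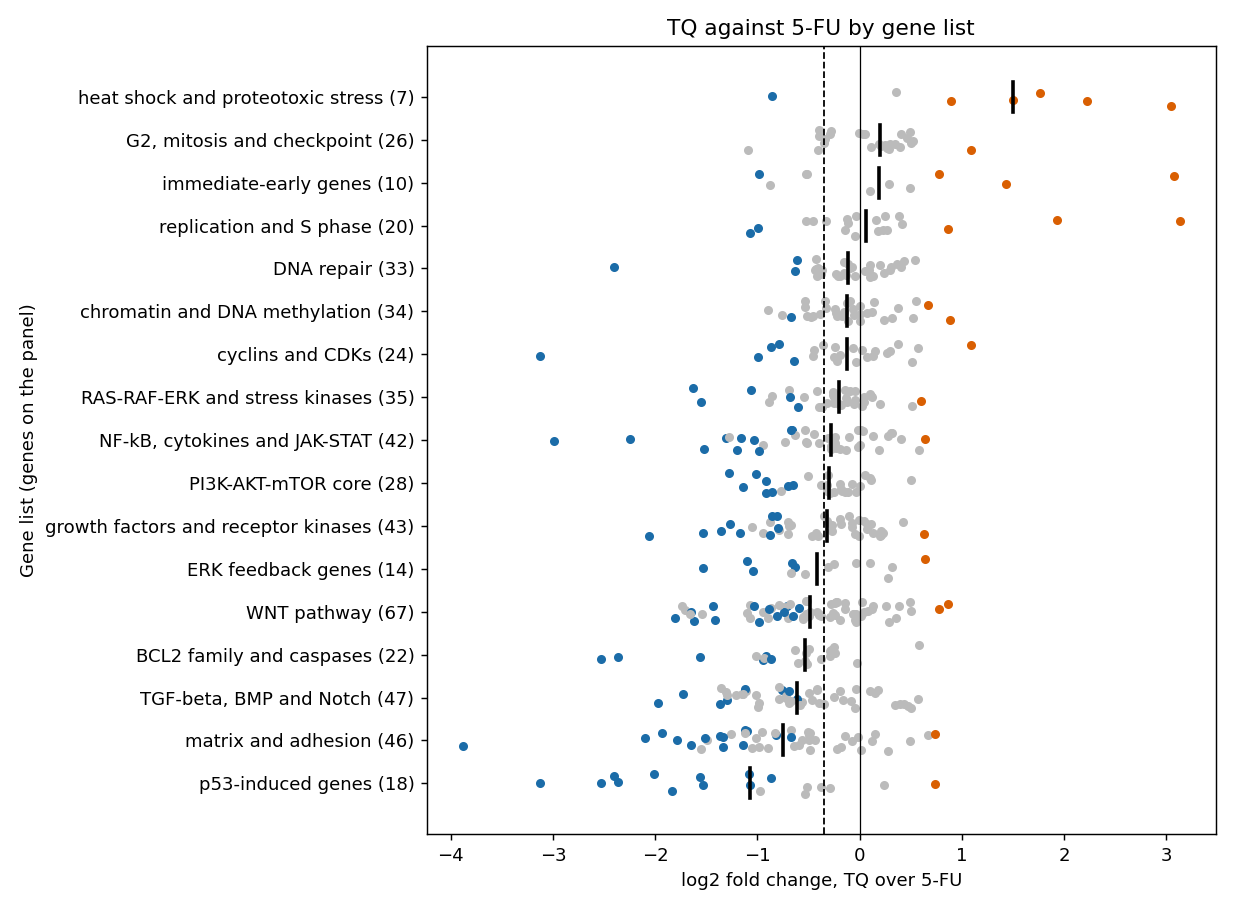
Log2 fold change of TQ over 5-FU with housekeeping scaling (horizontal axis) for the members of 17 gene lists, with the number of genes on the panel in brackets and the lists ordered by their median (black bar). Orange points were called higher and blue points lower in TQ, grey points were not called, the dashed line is the median of all 730 genes at -0.34, and the p53-induced genes lie furthest to the left and the stress genes furthest to the right.

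Against control, some of the 24 strongest genes were displaced in 5-FU, others in TQ, and others in opposite directions. These values come from a fit of all 5 groups with housekeeping scaling, and both contrasts share the 3 control samples. Of these control samples, 2 ran on another cartridge than TQ and 5-FU, and cartridge was not a covariate. Scaled endogenous counts summed to 380560 to 392215 in control, 312140 to 330540 in TQ and 317626 to 338445 in 5-FU. Negative probes averaged 11.7, 18.1 and 20.6 scaled counts in the control samples, 3.55 to 7.65 in TQ and 8.39 to 13.9 in 5-FU. HSPA1A, PRDM1 and LAMA3 were scarce in control, so their values over control rest on counts near background. The part of these totals and background levels in the values against control was not tested. HIST1H3H had a log2 fold change over control of -0.22 in TQ and -3.35 in 5-FU, NPM1 of -0.025 and -1.26, and CCNB1 of -0.17 and -1.26. In these genes 5-FU stood away from control and TQ lay near it. FOS had 2.70 in TQ and -0.37 in 5-FU, HSPA1A 3.64 and 0.56, and GADD45B 2.05 and 0.61, so that TQ was the one far from control. DDIT3 lay on opposite sides of control, at 0.80 in TQ and -0.97 in 5-FU. Among the genes lower in TQ, MDM2 had 0.22 in TQ and 2.05 in 5-FU, FAS -0.24 and 2.12, NGFR 0.073 and 2.14, and PRDM1 0.029 and 2.20, with 5-FU the one far above control. CDKN1A was at -0.95 in TQ and 2.18 in 5-FU, and ITGB4 at -0.95 and 1.16, on opposite sides of control. SFN lay above control in both, at 0.81 in TQ and 2.83 in 5-FU, and NOTCH3 was at -1.55 and 0.42, where TQ was the one far from control.

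**Figure D3:**
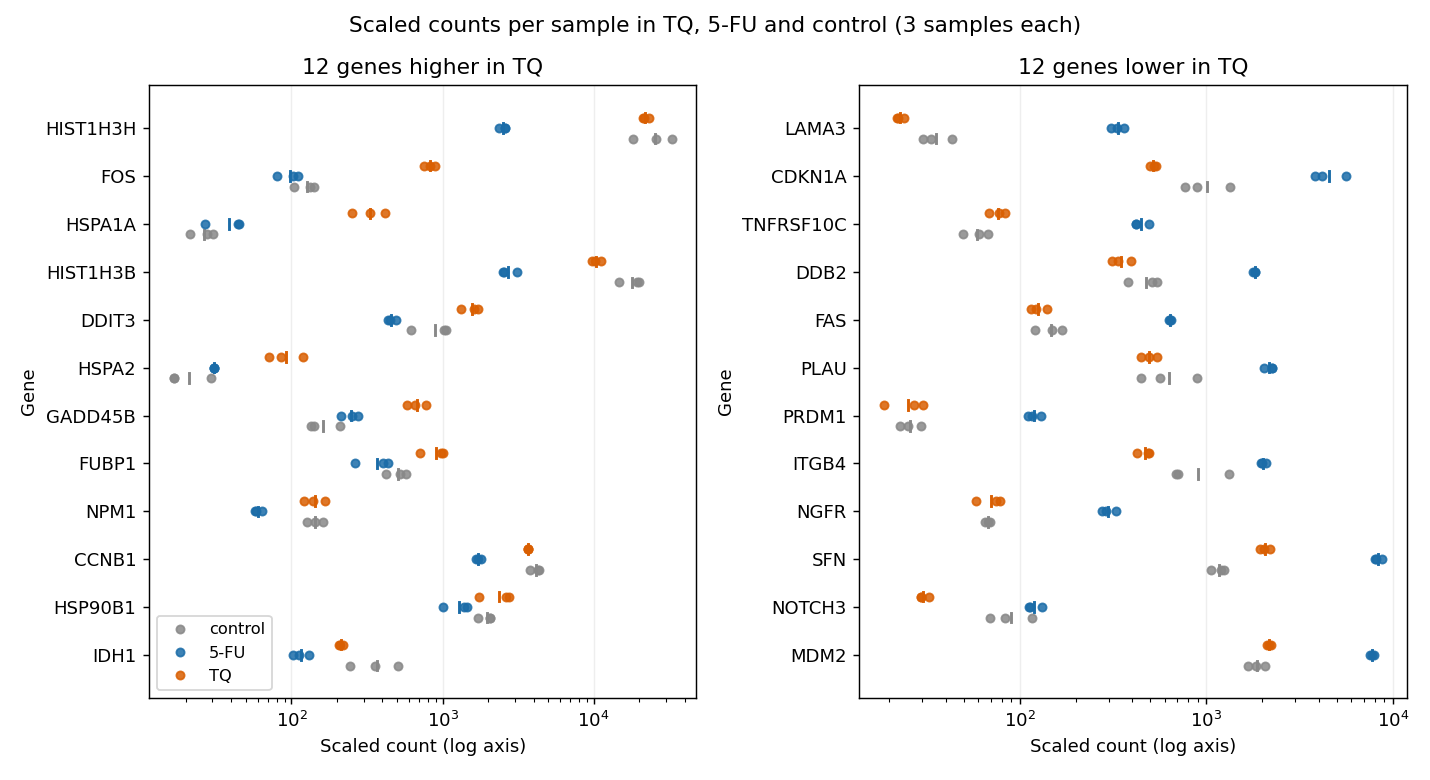
Scaled counts on a log axis for the 12 strongest genes higher in TQ (left) and the 12 strongest lower in TQ (right), with 1 point per sample, a bar at the mean of 3 samples, and TQ in orange, 5-FU in blue and control in grey. The genes were chosen so that the 3 orange and 3 blue points do not overlap, as in LAMA3 with 22 to 23.9 in TQ and 309.9 to 362 in 5-FU.

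**Figure D4:**
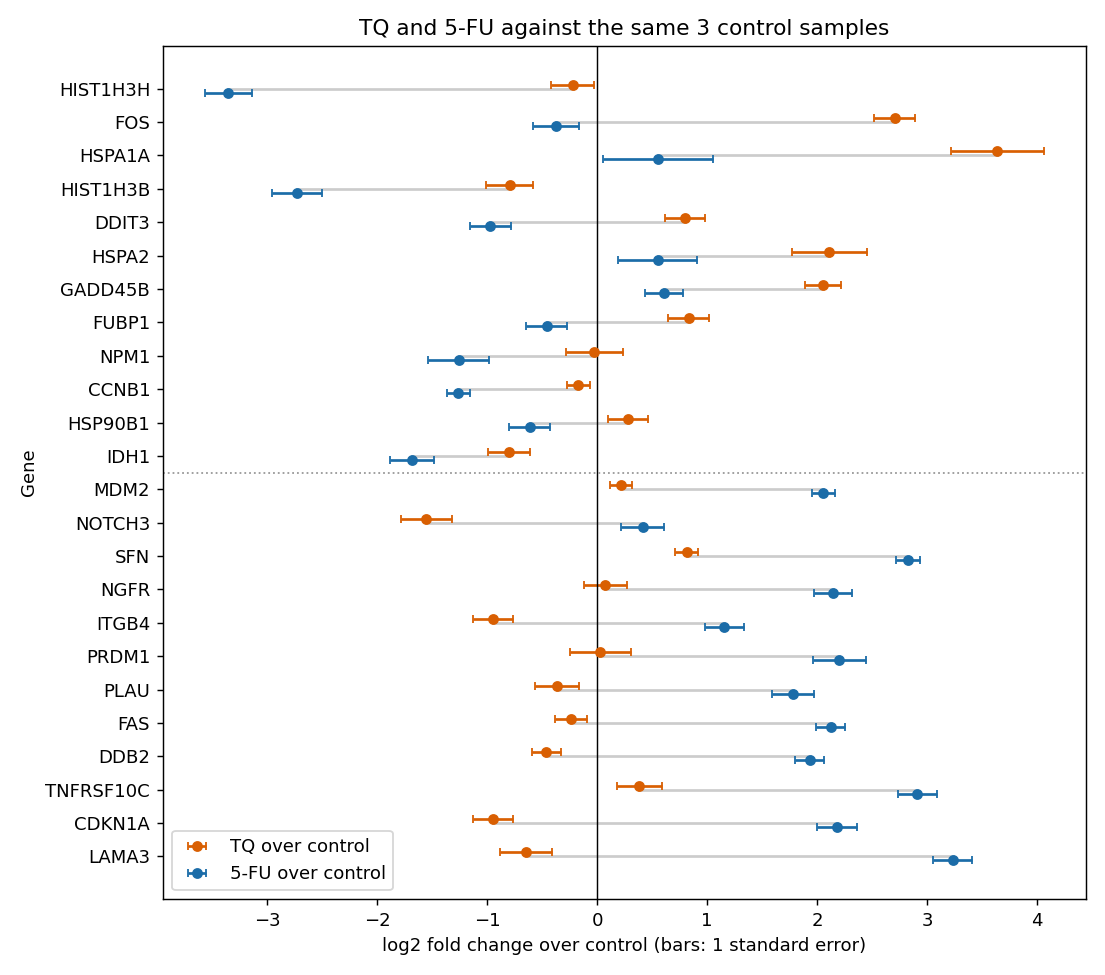
Log2 fold change over control (horizontal axis) of the same 24 genes in TQ (orange) and 5-FU (blue) from a fit of all 5 groups, with bars of 1 standard error and a grey line joining the treatments. The dotted line separates genes higher (above) from genes lower in TQ (below), and the blue points of most lower genes lie right of 0, for example 3.23 for LAMA3 and 2.91 for TNFRSF10C. LAMA3 was near background in control.

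The 40 housekeeping genes, which set the scale, had log2 fold changes from -0.76 to 0.59 with a median of -0.030. A median near 0 follows from this scaling and does not show that these genes were stable. With this scaling 1 of them was called higher and 0 lower in TQ. After TMM their median was 0.24, with 5 called higher and 0 lower. Single TQ samples correlated with each other at r between 0.969 and 0.973 on log2 counts over genes, 5-FU samples at 0.982 to 0.986, and a TQ with a 5-FU sample at 0.950 to 0.962, over genes that are not independent replicates. The 24 strongest genes kept their direction and their call in all 16 alternative settings. They were chosen from these same samples by their call, fold change and lack of overlap. The settings refit these samples, so this is no independent support.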

How the data were processed

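RNA (50 ng per sample) was counted by the authors on the nCounter system. The deposited raw counts per probe were used, and the deposited normalized signal, which the authors made in nSolver Analysis Software 3.0 from the counts and the housekeeping genes, entered 1 alternative. A deposited table of the authors' own fold changes and p-values was not used. The groups come from the sample labels. Raw counts of the 3 TQ and 3 5-FU samples were fitted in edgeR 4.0.16 (R 4.3.3) by its quasi-likelihood test, with the geometric mean of the 40 housekeeping genes as library size, no covariate, and Benjamini-Hochberg adjustment over 730 genes. Log2 fold changes against control come from the same kind of fit over all 5 groups, without cartridge as a covariate. A gene lies above background where it exceeds the mean of the negative probes by 2 SD. DESeq2 1.42.0 and limma 3.58.1 were alternatives.

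Named genes are the 12 strongest called genes in each direction with no overlap and at least 50 raw counts in the higher group, up to 3 called genes per list and direction, and a fixed set of 17. The members, the 17 lists and this rule were chosen with earlier results of these data known, and the promoters shown were chosen after their matches were seen. Of 730 genes, 548 had a promoter window in RefSeq. On simulated counts of 730 genes for this comparison, 66% of genes changed by a log2 of 1 and 90% of those changed by 2 were recovered, with 3 false calls. The simulation used the fitted dispersions, took the housekeeping scaling as exact and raised and lowered equal numbers of genes. It therefore cannot show errors from the scaling or from the background difference between the groups.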

Additional observations from a re-analysis of the deposited data

How the results depend on the processing

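The count of genes higher in TQ than in 5-FU was 25, moving to 63 with TMM normalization and 61 with DESeq2 size factors. The count of genes lower in TQ was 115, moving to 75 and 59. Without each sample in turn these counts ranged from 21 to 30 and from 95 to 138. The median log2 fold change over all genes moved from -0.34 to -0.069 with TMM, -0.045 with DESeq2 size factors, 0.11 with counts under 20 set to 20 and -0.097 with limma on the authors' normalized values, and ranged from -0.42 to -0.17 without each sample, the latter without TQ replicate 2. Deviations from the group mean correlated at 0.060, 0.075 and 0.35 between samples of equal replicate number. The 0.35, for replicate 3, was the highest of any TQ and 5-FU pair. Unequal numbers gave -0.38 to 0.30, the latter for TQ replicate 2 with 5-FU replicate 1. These values do not settle whether the numbers pair the samples, and the main fit did not pair them. With the replicate block 25 genes were higher and 127 lower. The other alternatives gave 22 to 30 higher and 95 to 120 lower genes. The sign turned for CCND1 with TMM (0.23), DESeq2 size factors (0.24) and without 5-FU replicate 3 (-0.085 to 0.033 without each sample), for CTNNB1 with TMM (0.13) and DESeq2 size factors (0.14), for DNMT1 with limma (-0.031), with housekeeping genes of at least 100 raw counts (-0.027, an alternative chosen after seeing the data) and without TQ replicate 2 (-0.035 to 0.026 without each sample), and for TGFB3 (0.081) and WNT7A (0.077) with counts under 20 set to 20. The cause was not tested. ERCC6 lost its call without TQ replicate 2, and GADD45A was called lower without 5-FU replicate 3. Few counts, under 20 in 245 to 344 genes per TQ sample, limit how precisely a fold change can be measured.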
